A study of Mus musculus with 8 samples.

Results

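Mouse esophageal organoids given TGFb1 together with BMP4 were compared with organoids given BMP4 together with an inhibitor of TGFb receptors. The comparison was between 4 of the 8 libraries of the study, 2 in each group, and its p-values used a spread estimated over all 8. It ran over the 16180 genes, of 52636 in the deposited table, that were at 1 CPM (counts per 1000000 of the library) or more in at least 2 of the 8 libraries. Organoids are cultures that grow as small tissue-like bodies, and here a suspension of cells digested from esophagi of wild-type mice had been grown in matrigel, a basement membrane gel, for 13 days. The inhibitor was A8301 at 500 nM, which blocks the type I receptors of TGFb and activin, BMP4 was used at 20 ng/ml and TGFb1 at 1 ng/ml, and treatment lasted 72 h with renewal every 24 h. The other groups of 2 libraries received the inhibitor alone or TGFb1 alone. No inhibitor is listed for the groups with TGFb1, so added TGFb1 and the absence of A8301 cannot be told apart in any value below. The labels describe no sorting of the suspension and do not say whether replicates came from separate mice or cultures, so p-values measure only the spread between these libraries, which may be technical.

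TGFb ligands bind a type II receptor that activates a type I receptor, which phosphorylates Smad2 and Smad3. BMP ligands use other receptor pairs that phosphorylate Smad1, Smad5 and Smad9, and both branches share Smad4. In stratified epithelia TGFb is known to restrain the growth of basal cells and to raise matrix genes, and BMP signalling is known for its part in squamous differentiation. Both pathways induce their own inhibitors, so their feedback genes serve as readouts of signalling.

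The libraries of the BMP4 + inhibitor group are written B1 and B2 and those of the TGFb1 + BMP4 group TB1 and TB2. Genes above 0 numbered 25017 and 25081 in B1 and B2 and 25386 and 27476 in TB1 and TB2. All 9 markers of esophageal epithelium were present, with a summed level of 14420.0 and 13525 CPM in B1 and B2 and 14568 and 11905 CPM in TB1 and TB2. Of 15 immune markers 11 stayed under 1 CPM in all 8 libraries, among them the leukocyte marker Ptprc at 0.3 CPM or less. That list summed to 80.4 and 71.7 CPM in B1 and B2 and to 81.2 and 141 CPM in TB1 and TB2, nearly all of it from Cd68, which fell, Itgam, which rose, Csf1r and Lyz2. The 10 endothelial markers summed to 10.5 and 14.2 CPM and 5.1 and 10.1 CPM, with Pecam1 and Cdh5 at 1.30 and 1.40 CPM at most. Markers of fibroblasts summed to 519.5 and 776 CPM in B1 and B2 and to 1869 and 7689 CPM in TB1 and TB2, and markers of skeletal muscle to 64.9 and 271 CPM and 135 and 737 CPM. Both sums were higher in replicate 2 than in replicate 1 of every group. In RNA of whole organoids, fewer cells of a type and less RNA per cell cannot be told apart.

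TGFb1 changed genes of most of the groups examined. Calls were made with limma on log2(CPM + 1) at an adjusted p under 0.05, and each log2 fold change is given with its SE, positive where TGFb1 + BMP4 was higher. Limma called 2797 genes higher (17.3% of the genes tested) and 1759 lower (10.9%), or 28.2% in all. Of these, 413 were higher and 400 lower by 2 or more on the log2 scale, and 57 and 120 by 4 or more, so the steepest changes were more often falls. The libraries of both groups did not overlap for 10317 genes (63.8%). Scaling by the median of ratios instead of the total lowered the median log2 fold change of all genes from 0.12 to 0.01, a shift of 0.11, and the calls became 1927 higher and 2074 lower, so that 48.2% of calls were higher instead of 61.4%. All changes below are given on the CPM scale. The 2797 and 1759 calls became 1458 and 1216 without B2, 2004 and 1093 without TB1 and 1315 and 1109 without TB2, and 1904 calls were made in the same direction with each of the 4 libraries left out.

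The 10 largest rises, taken from genes that reached 5 CPM in the higher group with no overlap of libraries, were those of secreted, matrix-modifying and lipid-oxidising proteins. Amtn, which encodes amelotin, a protein of the junctional epithelium of teeth (ENSMUSG00000029282, chromosome 5, 88376108 to 88385916, GRCm38), was at 12.8 and 0.4 CPM in B1 and B2 and at 831 and 616 CPM in TB1 and TB2 (7.35 ± 0.92, adjusted p = 0.00257). Odam (5.74 ± 0.96), whose product acts with amelotin in that epithelium, and Csn3 (5.85 ± 0.52), which encodes kappa-casein, lie on the same chromosome and rose too, and Odam was at 358 and 64.4 CPM in TB1 and TB2. Alox15, a lipoxygenase gene (ENSMUSG00000018924, chromosome 11, 70344152 to 70352031), went from 4.45 and 2.3 CPM to 505 and 496 CPM (6.89 ± 0.27, adjusted p = 0.000173). Adam12, a metalloprotease gene, had even values within each group, with 5.6 and 5.65 CPM in B1 and B2 and 605 and 578 CPM in TB1 and TB2 (6.48 ± 0.14, adjusted p = 2.2e-05). The others were C1qtnf3, a gene of a secreted C1q-related protein (6.93 ± 0.31), Wfdc18, a gene of a secreted WAP domain protein (6.42 ± 0.24), the hyaluronan synthase gene Has2 (6.24 ± 0.46), the gelatinase gene Mmp9 (6.11 ± 0.47) and the chemokine gene Ppbp (5.9 ± 0.25). C1qtnf3, Wfdc18, Has2, Mmp9 and Csn3 were all under 1 CPM in B1 and B2.

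The 10 largest falls were those of genes of the outer, cornifying layers of squamous epithelium. Rptn, which encodes repetin, a protein of the cornified envelope (ENSMUSG00000041984, chromosome 3, 93393699 to 93399442), was at 3682 and 3617 CPM in B1 and B2 and at 0.899 and 6.8 CPM in TB1 and TB2 (-9.89 ± 1.76, adjusted p = 0.00869). It was thus among the abundant transcripts of the BMP4 + inhibitor organoids and under 1 CPM in TB1. Dsg1a, a desmosomal cadherin gene of upper layers, went from 775 and 945 to 1.75 and 1.9 CPM (-8.25 ± 0.70, adjusted p = 0.000748). Hrnr, the hornerin gene, went from 197 and 202 to 0.05 and 0.2 CPM (-7.48 ± 0.31, adjusted p = 0.000183). The barrier lipid genes Abca12 (-7.25 ± 0.62), which encodes a lipid transporter, and Alox12b (-6.99 ± 0.60), a lipoxygenase gene, fell from 523 and 743 to 2.6 and 3.7 CPM and from 498 and 443 to 3.2 and 2.25 CPM. Klk14, a kallikrein protease gene (-7.26 ± 0.64), Endou, an endoribonuclease gene (-7.43 ± 0.91), the surface protein gene Lypd5 (-6.99 ± 0.58), the claudin gene Cldn17 (-6.52 ± 0.68) and Il1f5 (-6.48 ± 0.54), which encodes the IL36 receptor antagonist, completed the group. For each of these genes both TGFb1 + BMP4 libraries lay below both BMP4 + inhibitor libraries, as the rule for naming them asked.

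**Figure D1:**
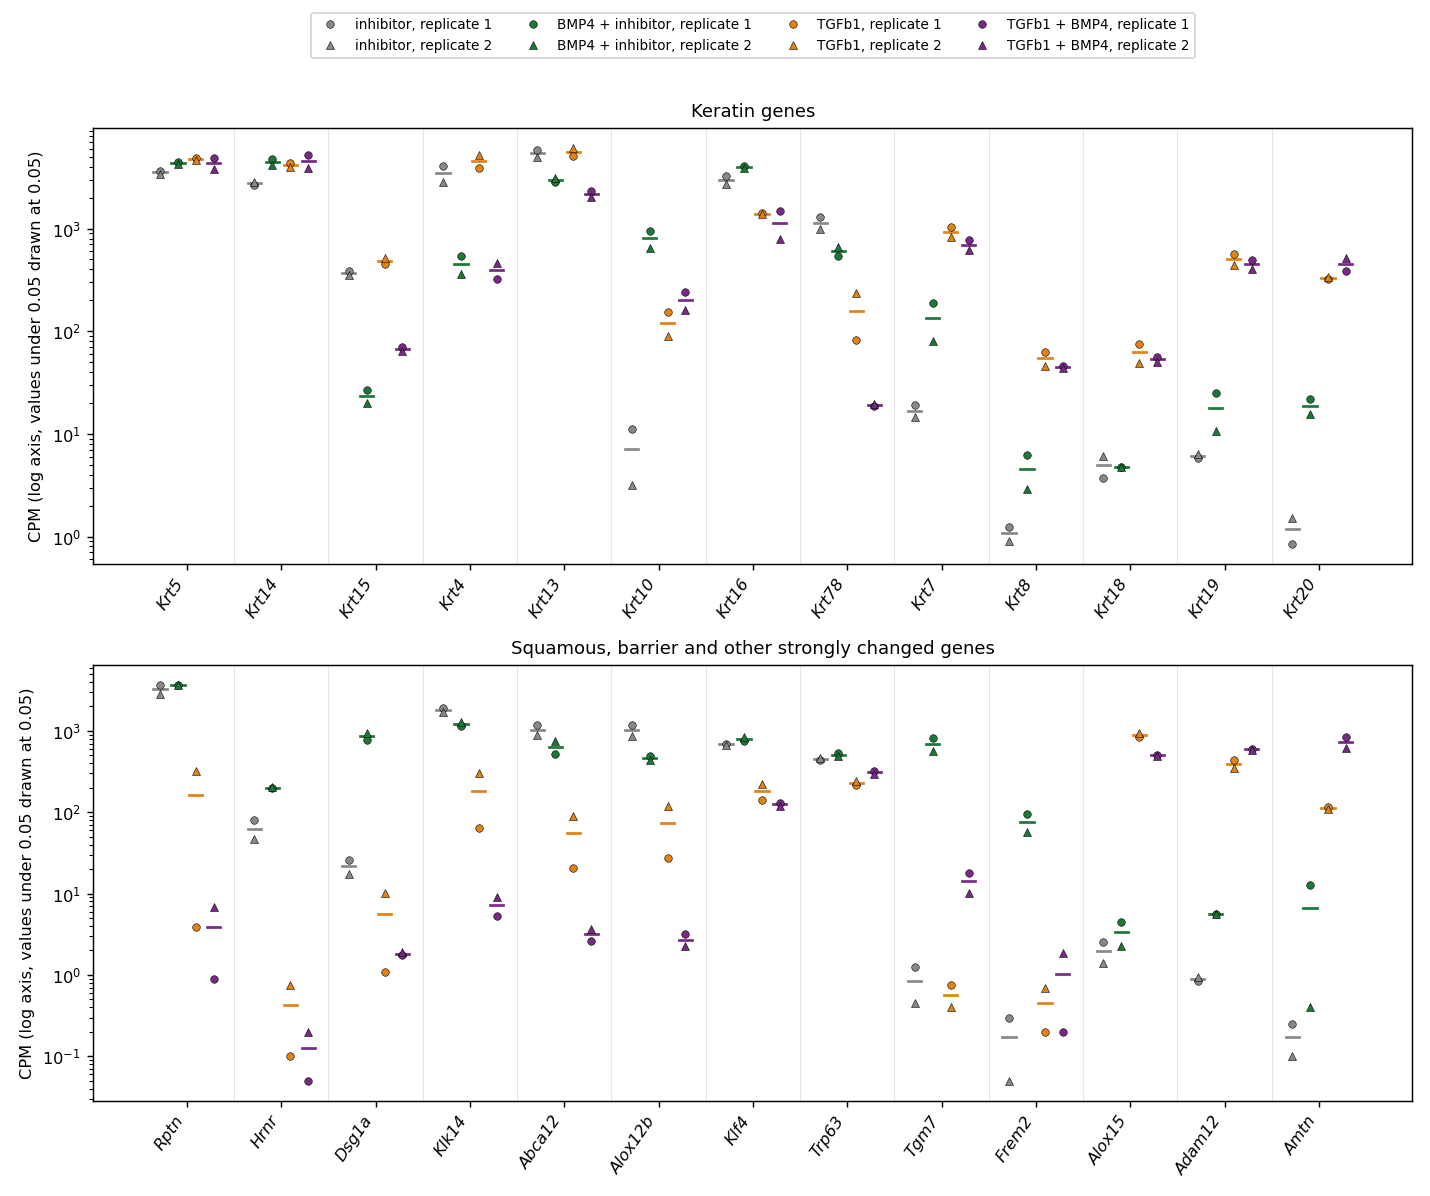
CPM on a log axis for 13 keratin genes (top) and 13 squamous, barrier and strongly changed genes (bottom) in each of the 8 libraries, with circles for replicate 1, triangles for replicate 2 and bars for group means, and values under 0.05 drawn at 0.05. Krt5 and Krt14 overlap between the compared groups, Krt7, Krt8, Krt18, Krt19 and Krt20 are higher in both groups with TGFb1, and Rptn, Hrnr, Klk14, Abca12 and Alox12b have their lowest group mean with TGFb1 + BMP4.

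Genes known as TGFb targets rose with TGFb1 in the presence of BMP4. Of 28 tested, 18 rose and the other 10 did not pass, with a median log2 fold change of 1.41 against 0.12 over all genes tested and 17.3% of all genes called higher. Pmepa1, which encodes a membrane protein that restrains TGFb signalling (ENSMUSG00000038400, chromosome 2, 173224458 to 173276533), was at 50.7 and 29.0 CPM in B1 and B2 and at 638 and 575 CPM in TB1 and TB2 (3.94 ± 0.24, adjusted p = 0.000347). Ldlrad4, another inhibitor of the pathway, went from 6.05 and 4.8 to 47.1 and 52.6 CPM (2.99 ± 0.17, adjusted p = 0.000296). Smad7, the inhibitory SMAD, went from 76.5 and 61.2 to 145 and 117 CPM (0.92 ± 0.21, adjusted p = 0.0195). Both genes were higher in both TGFb1 + BMP4 libraries. Skil, a SMAD corepressor gene, rose by less (0.77 ± 0.13, adjusted p = 0.00641), and the related Ski did not pass (0.27 ± 0.11, adjusted p = 0.122). Smad7 lost its call without B2 or TB1 (adjusted p = 0.0306 to 0.0931 over the 4 fits). Smad7 missed the threshold under median-of-ratios scaling (adjusted p = 0.056).

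Targets linked to the matrix rose as well. Tgfbi, the gene of a secreted matrix adaptor protein (ENSMUSG00000035493, chromosome 13, 56609523 to 56639562), was at 469 and 299 CPM in B1 and B2 and at 1475 and 1467 CPM in TB1 and TB2 (1.97 ± 0.21, adjusted p = 0.00153). Ctgf, the connective tissue growth factor gene, was at 9.94 and 8.94 CPM in B1 and B2 and at 171 and 357 CPM in TB1 and TB2 (4.57 ± 0.37, adjusted p = 0.000669). Mmp9 was at 0.899 and 0.7 CPM in B1 and B2 and at 205 and 74.1 CPM in TB1 and TB2 (adjusted p = 0.000578). Lama3 (1.22 ± 0.15, adjusted p = 0.00265), a laminin chain gene, Itgb6 (0.89 ± 0.13, adjusted p = 0.00365) and Itgav (0.87 ± 0.16, adjusted p = 0.00992), which encode the subunits of a TGFb-activating integrin, Ltbp2 (3.57 ± 0.76, adjusted p = 0.0166) and Ltbp3 (1.07 ± 0.16, adjusted p = 0.00462), which encode latent TGFb binding proteins, also rose. So did Spsb1 (2.19 ± 0.29, adjusted p = 0.0031), a ubiquitin ligase adaptor gene, the transcription factor gene Bhlhe40 (1.4 ± 0.18, adjusted p = 0.00302), Plaur (2.14 ± 0.55, adjusted p = 0.0297), the urokinase receptor gene, and Tgm2 (2.87 ± 0.80, adjusted p = 0.0394), the tissue transglutaminase gene. Fn1 (1.69 ± 1.11, adjusted p = 0.295), Postn (2.97 ± 1.1, adjusted p = 0.0899), Snai1 (1.42 ± 0.82, adjusted p = 0.24) and Ankrd1 (1.31 ± 1.01, adjusted p = 0.372) did not pass, and in each of these the replicate 2 libraries were well above the replicate 1 libraries. Cdkn1a (-0.34 ± 0.16, adjusted p = 0.154), Junb (0.28 ± 0.22, adjusted p = 0.375), Hmga2 (0.25 ± 0.81, adjusted p = 0.839), Tgif1 (-0.19 ± 0.40, adjusted p = 0.743) and Cyr61 (-0.22 ± 0.36, adjusted p = 0.671) did not pass either. Itgav lost its call without B2 or TB2 (adjusted p = 0.0171 to 0.0556 over the 4 fits). Ltbp2 lost its call without B1 or TB2 (adjusted p = 0.014 to 0.0687 over the 4 fits). Plaur lost its call without B1, TB1 or TB2 (adjusted p = 0.0178 to 0.0979 over the 4 fits). Tgm2 lost its call without B1, B2 or TB2 (adjusted p = 0.0291 to 0.163 over the 4 fits). Fn1 passed with the replicate block (adjusted p = 0.00284, 0.00284 to 0.826 over the alternatives). Postn passed with the replicate block (adjusted p = 0.00308, 0.00308 to 0.345 over the alternatives). Snai1 passed with the replicate block (adjusted p = 0.0409, 0.0409 to 0.782 over the alternatives). Ankrd1 passed with the replicate block (adjusted p = 0.000929, 0.000929 to 0.857 over the alternatives).

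The promoters of 4 of these targets are shown because they have the smallest adjusted p among the called targets that the promoter table holds on the chromosomes from which sequence is shown. Of the 18 called targets 8 were matched, and Pmepa1, Mmp9, Ctgf and Bhlhe40 were among those without a match. Each window is RefSeq sequence of GRCm38.p6, 5′ to 3′ on the gene's strand, with 250 bases before and 50 after the start of transcription. Capitals mark CAGAC or its reverse complement GTCTG, the core of SMAD binding sites.
Tgfbi, chr13:56609336-56609635, plus strand: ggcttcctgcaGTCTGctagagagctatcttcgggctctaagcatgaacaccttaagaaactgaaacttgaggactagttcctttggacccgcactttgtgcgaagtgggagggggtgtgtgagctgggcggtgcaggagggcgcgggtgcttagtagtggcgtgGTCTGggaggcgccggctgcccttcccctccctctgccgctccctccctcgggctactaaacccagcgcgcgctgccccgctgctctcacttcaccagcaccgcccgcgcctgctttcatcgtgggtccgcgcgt
Spsb1, chr4:149954957-149955256, minus strand: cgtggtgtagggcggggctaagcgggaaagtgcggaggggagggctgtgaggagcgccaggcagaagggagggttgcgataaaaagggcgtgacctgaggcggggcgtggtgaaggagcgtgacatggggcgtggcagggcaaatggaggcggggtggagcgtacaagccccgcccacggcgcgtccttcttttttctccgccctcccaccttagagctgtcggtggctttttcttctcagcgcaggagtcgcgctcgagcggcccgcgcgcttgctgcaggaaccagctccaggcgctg
Itgb6, chr2:60722554-60722853, minus strand: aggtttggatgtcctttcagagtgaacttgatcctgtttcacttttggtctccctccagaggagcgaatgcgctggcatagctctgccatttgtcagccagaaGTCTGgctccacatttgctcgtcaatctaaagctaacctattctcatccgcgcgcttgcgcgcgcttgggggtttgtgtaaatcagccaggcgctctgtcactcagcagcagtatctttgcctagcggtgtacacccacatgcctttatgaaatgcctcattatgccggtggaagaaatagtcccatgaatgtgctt
Cdkn2b, chr4:89310983-89311282, minus strand: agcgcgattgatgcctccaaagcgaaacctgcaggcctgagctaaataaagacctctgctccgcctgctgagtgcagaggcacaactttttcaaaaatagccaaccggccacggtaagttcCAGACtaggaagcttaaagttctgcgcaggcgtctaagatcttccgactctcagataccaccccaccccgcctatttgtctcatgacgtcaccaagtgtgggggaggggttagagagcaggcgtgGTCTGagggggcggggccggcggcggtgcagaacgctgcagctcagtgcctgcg
The core occurred at 2 places in the Tgfbi window, 1 in the Itgb6 window, 2 in the Cdkn2b window and 0 in the Spsb1 window. It was held by 49.6% of all 32851 windows, so a match in 3 of 4 is a description of these letters. TGANTCA, the AP-1 motif searched on both strands, was in none of the 4 windows and in 7.81% of all windows. For Itgb6, for which the table holds 2 windows, 1 is shown.

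Genes known as BMP targets were divided. Of 20 tested, 3 rose, 5 fell and 12 did not pass (5 rose with the block and 2 fell without B1), with a median of -0.099, which was 0.03 without B1 and 0.10 with the stricter filter of 1 CPM in 4 libraries. The share that rose was close to the 17.3% of all genes called higher. The share that fell was above the 10.9% called lower, but it depended on B1. Id1, Id3, Id4, Smad6 and Atoh8, widely used readouts of BMP signalling, did not pass, whereas Id2 did. Id1, a helix-loop-helix inhibitor gene, was at 231 and 219 CPM in B1 and B2 and at 213 and 157 CPM in TB1 and TB2 (-0.30 ± 0.33, adjusted p = 0.54). Id3, of the same family, was at 288 and 243 CPM in B1 and B2 and at 328 and 284 CPM in TB1 and TB2 (0.20 ± 0.33, adjusted p = 0.671). Id4 was at 19.0 and 11.4 CPM in B1 and B2 and at 16.6 and 15.1 CPM in TB1 and TB2 (0.098 ± 0.33, adjusted p = 0.847). Smad6, the inhibitory SMAD of the BMP branch, was at 27.8 and 16.4 CPM in B1 and B2 and at 27.7 and 25.2 CPM in TB1 and TB2 (0.29 ± 0.25, adjusted p = 0.414), and its groups overlapped. Atoh8 (0.25 ± 0.25, adjusted p = 0.491), a transcription factor gene induced by BMP, did not pass either. A difference that misses the threshold with 2 libraries a group does not show that the levels were equal.

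Of the 5 BMP targets that fell 3 were homeobox genes. Dlx5 went from 8.99 and 15.3 to 1.25 and 0.7 CPM (-2.71 ± 0.38, adjusted p = 0.00371). Msx2 went from 35.9 and 28.2 to 10.2 and 4.0 CPM (-2.13 ± 0.38, adjusted p = 0.00909). Dlx3, a homeobox gene of differentiating keratinocytes, went from 241 and 138 to 29.4 and 16.5 CPM (-2.99 ± 0.61, adjusted p = 0.0138). Bambi, which encodes a pseudoreceptor for TGFb and BMP ligands, fell from 41.1 and 25.6 to 17.3 and 16.3 CPM (-0.91 ± 0.23, adjusted p = 0.0293). Tfap2c, a transcription factor gene of surface epithelium, fell from 28.1 and 26.3 to 20.3 and 13.2 CPM (-0.69 ± 0.20, adjusted p = 0.0447). Nog, the noggin gene, was at 34.4 and 16.7 CPM in B1 and B2 and at 12.2 and 9.19 CPM in TB1 and TB2 and just missed the threshold (-1.11 ± 0.34, adjusted p = 0.0531). Id2 rose from 66.3 and 44.2 to 147 and 139.9 CPM (1.39 ± 0.20, adjusted p = 0.0041). Runx2, a transcription factor gene of bone, rose from 91.2 and 53.6 to 202 and 176 CPM (1.42 ± 0.26, adjusted p = 0.00996). Smurf1, which encodes a ubiquitin ligase for SMADs, rose from 125 and 131 to 348 and 312 CPM (1.36 ± 0.13, adjusted p = 0.00117). Msx1 (-0.67 ± 0.38), Hey1 (-1.11 ± 0.50), Smad9 (-0.83 ± 0.44), Bmper (2.91 ± 1.14) and Grem1 (1.58 ± 0.97) did not pass. Dlx3 lost its call without B1 or TB2 (adjusted p = 0.0316 to 0.0709 over the 4 fits). Bambi lost its call without B1, TB1 or TB2 (adjusted p = 0.0128 to 0.114 over the 4 fits). Tfap2c lost its call without B1, B2 or TB2 (adjusted p = 0.0159 to 0.156 over the 4 fits). Nog passed with the replicate block (adjusted p = 0.0317, 0.0173 to 0.202 over the alternatives). Bmper passed with the replicate block (adjusted p = 0.00626, 0.00626 to 0.392 over the alternatives). Grem1 passed with the replicate block (adjusted p = 0.00678, 0.00678 to 0.824 over the alternatives).

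**Figure D2:**
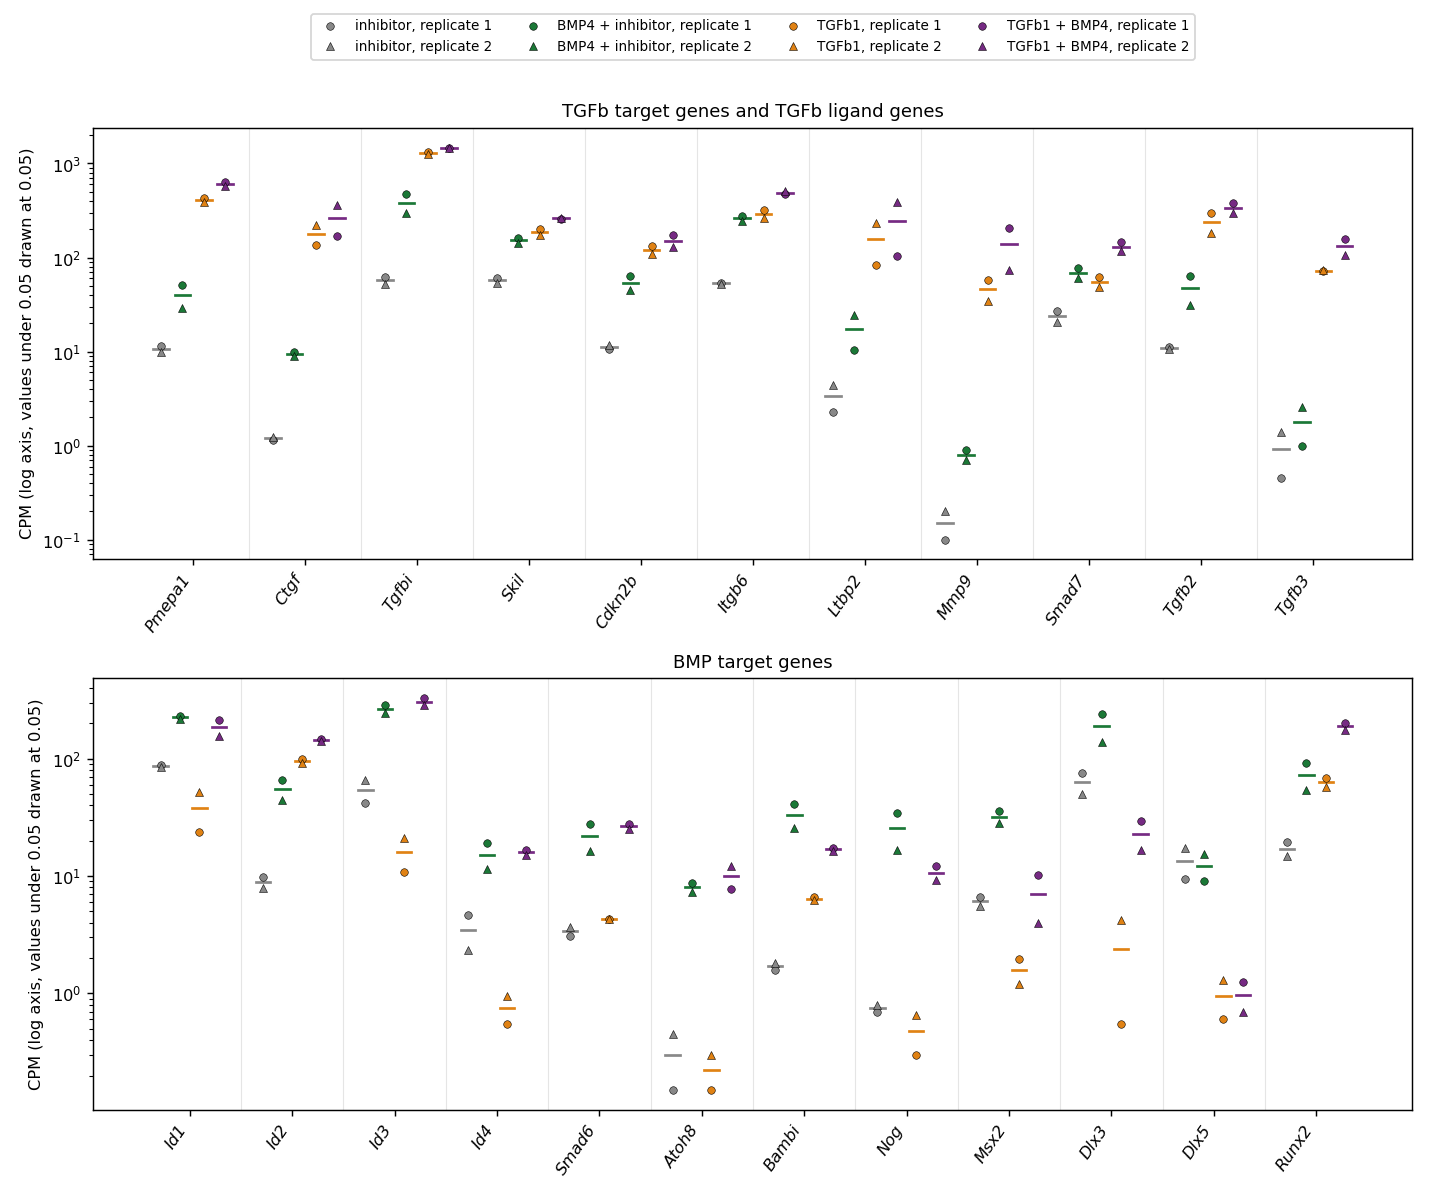
CPM on a log axis for 11 TGFb target and ligand genes (top) and 12 BMP target genes (bottom) in each of the 8 libraries, with circles for replicate 1, triangles for replicate 2 and bars for group means. All 11 genes of the top panel are higher in both TGFb1 + BMP4 libraries than in both BMP4 + inhibitor libraries. These 11 are all genes called higher, and no target that missed the threshold is drawn there, so their separation is no further support. Id1, Id3, Id4, Smad6 and Atoh8 are higher in both groups with BMP4 than in both groups without it.

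Of 14 TGFb and BMP ligand genes tested, 6 rose and 8 did not pass (4 rose with median-of-ratios scaling and 3 without TB2). Among all genes tested, 17.3% were called higher. Tgfb3 was nearly absent with BMP4 + inhibitor, at 0.999 and 2.6 CPM in B1 and B2, and was at 156 and 106 CPM in TB1 and TB2 (5.59 ± 0.36, adjusted p = 0.000376). Tgfb2 went from 64.2 and 31.3 to 379 and 295 CPM (2.87 ± 0.36, adjusted p = 0.00255). Tgfb1 itself went from 151 and 131 to 197 and 205 CPM (0.51 ± 0.15, adjusted p = 0.0456). Inhba, which encodes the activin A chain, was uneven in the BMP4 + inhibitor libraries at 3.65 and 32.9 CPM and was at 210.3 and 286 CPM in TB1 and TB2 (4.3 ± 0.82, adjusted p = 0.0112). Bmp1 (1.59 ± 0.24, adjusted p = 0.00509), which encodes a procollagen protease and not a BMP ligand, and Bmp6 (0.66 ± 0.17, adjusted p = 0.0313) rose as well. Bmp2 (-0.31 ± 0.26, adjusted p = 0.407), Bmp7 (-1.36 ± 0.48, adjusted p = 0.0767), Inhbb (0.37 ± 0.21, adjusted p = 0.23), Inha (0.62 ± 0.25, adjusted p = 0.107), Gdf11 (0.59 ± 0.51, adjusted p = 0.422), Gdf15 (0.11 ± 0.71, adjusted p = 0.921), Bmp3 (-0.76 ± 0.43, adjusted p = 0.229) and the endogenous Bmp4 gene (0.71 ± 0.39, adjusted p = 0.214) did not pass, and Bmp4 was at 0.1 CPM in B1 and B2 and at 0.3 and 1.5 CPM in TB1 and TB2. Tgfb1 lost its call without any 1 of the 4 libraries (adjusted p = 0.0615 to 0.182 over the 4 fits). Inhba lost its call without TB2 (adjusted p = 0.00215 to 0.0569 over the 4 fits). Bmp6 lost its call without any 1 of the 4 libraries (adjusted p = 0.0886 to 0.116 over the 4 fits). Tgfb1 missed the threshold under median-of-ratios scaling (adjusted p = 0.104). Bmp6 missed the threshold under median-of-ratios scaling (adjusted p = 0.0526). Bmp7 passed with the replicate block (adjusted p = 0.00623, 0.00623 to 0.309 over the alternatives). Inha passed with the replicate block (adjusted p = 0.0488, 0.0488 to 0.371 over the alternatives).

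Of 19 receptor and SMAD genes 7 rose and 1 fell (2 with the block and 0 without B2, TB1 or TB2), with 3 rising under median-of-ratios scaling and 3, 3, 3 and 2 with B1, B2, TB1 and TB2 left out in turn. Acvr1, a type I receptor gene of the BMP branch, went from 40.6 and 44.3 to 103 and 113 CPM (1.33 ± 0.12, adjusted p = 0.000976), and the TGFb receptor genes Tgfbr1 (1.27 ± 0.19, adjusted p = 0.00446) and Tgfbr2 (1.38 ± 0.29, adjusted p = 0.0157) rose by a like amount. Smad3 (0.60 ± 0.15, adjusted p = 0.0282) and Smad5 (0.36 ± 0.09, adjusted p = 0.0234) changed little and passed narrowly. The counts in this section stand against 17.3% of all genes tested called higher and 10.9% lower. Of 17 genes of antagonists and of the latent complex 7 rose and 2 fell (3 rose without B1 and 4 without TB2). The fall of Sostdc1, a BMP and Wnt antagonist gene (ENSMUSG00000036169, chromosome 12, 36314139 to 36318452), was the steepest of these, from 393 and 401 CPM in B1 and B2 to 8.54 and 7.04 CPM in TB1 and TB2 (-5.51 ± 0.50, adjusted p = 0.000918). Follistatin gene Fst went from 4.0 and 6.45 to 21.5 and 83.4 CPM (2.84 ± 0.57, adjusted p = 0.0136). Fstl1, a gene of a secreted follistatin-like protein, went from 7.5 and 20.5 to 139 and 330.2 CPM (3.99 ± 0.67, adjusted p = 0.007). Lrrc32, which encodes an anchor of latent TGFb at the cell surface, went from 9.29 and 24.5 to 161 and 129 CPM (3.16 ± 0.46, adjusted p = 0.00442). In Fst and Fstl1 both TGFb1 + BMP4 libraries were above both others, although TB2 was well above TB1. Tgfbr2 lost its call without B1 or TB2 (adjusted p = 0.0117 to 0.0627 over the 4 fits). Smad3 lost its call without any 1 of the 4 libraries (adjusted p = 0.0666 to 0.115 over the 4 fits). Smad5 lost its call without any 1 of the 4 libraries (adjusted p = 0.0597 to 0.096 over the 4 fits). Fst lost its call without B1 (adjusted p = 0.0033 to 0.0569 over the 4 fits). Smad3 missed the threshold under median-of-ratios scaling (adjusted p = 0.116). Smad5 missed the threshold under median-of-ratios scaling (adjusted p = 0.162).

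Basal cell genes moved in both directions while the main basal keratins did not pass. Krt5 was at 4499.8 and 4234 CPM in B1 and B2 and at 4844 and 3765 CPM in TB1 and TB2 (-0.032 ± 0.19, adjusted p = 0.913). Krt14 was at 4784 and 4204 CPM in B1 and B2 and at 5162 and 3923 CPM in TB1 and TB2 (0.005 ± 0.20, adjusted p = 0.988). Sox2, a transcription factor gene of esophageal progenitors, did not pass (0.19 ± 0.18, adjusted p = 0.46), and Trp63, the gene of the basal regulator p63, fell from 533 and 492 to 324 and 296 CPM (-0.72 ± 0.11, adjusted p = 0.00538). Of 23 basal genes 6 rose, 5 fell and 12 did not pass, against 17.3% of all genes tested called higher and 10.9% lower. Krt15 rose from 27.0 and 20.0 to 70.9 and 64.7 CPM (1.5 ± 0.16, adjusted p = 0.00144). The caveolin gene Cav1 rose from 25.4 and 24.1 to 138 and 152 CPM (2.5 ± 0.11, adjusted p = 0.000183). Dlk2, a Notch-related transmembrane gene, fell from 24.8 and 27.9 to 0.3 and 1.1 CPM (-4.05 ± 0.37, adjusted p = 0.000911). Dst, the dystonin gene of hemidesmosomes, fell from 1069 and 1372 to 427 and 497 CPM (-1.39 ± 0.15, adjusted p = 0.00158).

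Most suprabasal genes fell. Of 34 tested, 24 fell and 3 rose (1 with median-of-ratios scaling or without B2), against 10.9% and 17.3% of all genes tested, with a median of -1.56. The esophageal keratins Krt4 (-0.20 ± 0.31, adjusted p = 0.648) and Krt13 (-0.44 ± 0.19, adjusted p = 0.123) were not among them. Krt4 was at 545 and 361 CPM in B1 and B2 and at 323 and 459 CPM in TB1 and TB2, and its groups overlapped. Klf4, a transcription factor gene of differentiating keratinocytes, fell from 744 and 831 to 129.7 and 119.7 CPM (-2.65 ± 0.20, adjusted p = 0.000578). Crnn, the cornulin gene, fell from 13.5 and 13.5 to 0.35 and 0.4 CPM (-3.4 ± 0.15, adjusted p = 0.000183). Spink5, which encodes an inhibitor of kallikreins, fell from 2219 and 2452 to 419 and 352 CPM (-2.6 ± 0.18, adjusted p = 0.000451). For all 3 the libraries within a group were close to each other. Of 10 epidermal and stress keratins 8 fell and 1 rose (0 with median-of-ratios scaling or without B2, TB1 or TB2), with a median of -1.93. Krt16, a keratin of activated epithelium, fell from 4036 and 3855 to 1489 and 789.9 CPM (-1.86 ± 0.29, adjusted p = 0.00543). Krt78 fell from 542 and 661 to 18.7 and 19.7 CPM (-4.89 ± 0.44, adjusted p = 0.000911). Krt80 fell from 1027 and 926 to 256 and 213 CPM (-2.06 ± 0.15, adjusted p = 0.000512). Krt75 fell from 8.79 and 17.7 to 1.5 and 0.75 CPM (-2.7 ± 0.35, adjusted p = 0.0029). Krt10, found in the layers above the basal one in skin, went from 957 and 649 to 241 and 162 CPM (-1.99 ± 0.53, adjusted p = 0.0346). Krt24 was at 6.25 and 3.95 CPM in B1 and B2 and at 0 in TB1 and TB2, at least 34.0-fold lower against a floor of 0.15 CPM per library (adjusted p = 0.000705), and the list median was -1.93 with Krt24 at that bound. Krt10 lost its call without any 1 of the 4 libraries (adjusted p = 0.0664 to 0.143 over the 4 fits).

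Genes of barrier lipid synthesis fell too, 17 of 24, while Alox15 rose and 6 did not pass (2 rose with the block). This count and that of junction genes below stand against 10.9% of all genes tested called lower and 17.3% higher. Cers3, a ceramide synthase gene, fell from 315 and 364 to 63.2 and 59.0 CPM (-2.45 ± 0.13, adjusted p = 0.000235). Elovl1, a fatty acid elongase gene, fell from 426 and 499 to 119 and 109.9 CPM (-2.0 ± 0.17, adjusted p = 0.000764). The list median was -1.89. Junction genes were divided, with 10 of 31 higher and 12 lower (5 higher without B2 or without TB1, and 6 with median-of-ratios scaling). Cdh1, the E-cadherin gene, was at 998 and 974 CPM in B1 and B2 and at 1232 and 1045 CPM in TB1 and TB2 (0.20 ± 0.14, adjusted p = 0.334). Besides Dsg1a, the desmosomal gene Dsc3 fell from 1237 and 1331 to 395 and 322 CPM (-1.84 ± 0.14, adjusted p = 0.000559). The connexin gene Gjb2 fell from 1402 and 1443 to 335 and 284 CPM (-2.2 ± 0.20, adjusted p = 0.000929). Cldn3, a claudin gene of simple epithelia, rose from 2.95 and 1.95 to 21.8 and 21.6 CPM (2.73 ± 0.22, adjusted p = 0.000667). Pkp2, a plakophilin gene found in simple epithelia and heart, rose from 0.799 and 1.15 to 15.3 and 16.0 CPM (3.09 ± 0.24, adjusted p = 0.000578).

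All 5 keratins of simple epithelium rose, with a median of 3.23, against 17.3% of all genes tested called higher. Krt19 (ENSMUSG00000020911, chromosome 11, 100140810 to 100148665) was at 25.3 and 10.6 CPM in B1 and B2 and at 495 and 407 CPM in TB1 and TB2 (4.68 ± 0.36, adjusted p = 0.000578). Krt20, a keratin of intestine and urothelium, was at 21.6 and 15.7 CPM in B1 and B2 and at 384 and 513 CPM in TB1 and TB2 (4.52 ± 0.22, adjusted p = 0.000213). Krt7 was at 189 and 79.8 CPM in B1 and B2 and at 769 and 621 CPM in TB1 and TB2 (2.48 ± 0.39, adjusted p = 0.00536). Krt8 was at 6.25 and 2.9 CPM in B1 and B2 and at 46.0 and 43.8 CPM in TB1 and TB2 (3.11 ± 0.31, adjusted p = 0.00122). Its partner Krt18 was at 4.75 and 4.75 CPM in B1 and B2 and at 56.6 and 49.8 CPM in TB1 and TB2 (3.23 ± 0.26, adjusted p = 0.000677). The groups did not overlap for any of the 5, as was so for 63.8% of all genes tested. Krt8 and Krt18 stayed under 60 CPM in all 4 libraries. These CPM values are not per length, so they are compared between groups and not between genes. Of 32 columnar and progenitor genes 22 were too low to be tested, among them the gastric and intestinal genes Hnf4a, Cdx1, Cdx2, Tff1 and Muc5ac. Of the 10 tested 4 rose and 1 fell, against 17.3% and 10.9% of all genes tested. The share that fell was thus near that of all genes. Sox9, a transcription factor gene of columnar progenitors, rose from 19.2 and 20.9 to 191 and 153 CPM (3.03 ± 0.24, adjusted p = 0.000616). Epcam rose from 22.2 and 30.4 to 187 and 229 CPM (2.94 ± 0.26, adjusted p = 0.000845). The mucin gene Muc4 rose from 27.3 and 21.1 to 134 and 139 CPM (2.46 ± 0.19, adjusted p = 0.000578). Foxa1, a transcription factor gene of endoderm, rose from 28.9 and 14.6 to 64.1 and 52.3 CPM (1.45 ± 0.37, adjusted p = 0.0294). Spdef, a transcription factor gene of secretory cells, fell from 8.0 and 8.99 to 0 and 0.15 CPM (-3.14 ± 0.43, adjusted p = 0.00331). Foxa1 lost its call without B2, TB1 or TB2 (adjusted p = 0.0161 to 0.115 over the 4 fits). Foxa1 missed the threshold under median-of-ratios scaling (adjusted p = 0.0503).

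Collagen genes rose widely, in counts that stand against 17.3% of all genes tested called higher. Of 26 tested, 16 rose and 10 did not pass, with a median of 2.99, and 9, 8, 17 and 7 were called higher with B1, B2, TB1 and TB2 left out in turn. The basement membrane collagens Col4a3 and Col4a4, neighbours on chromosome 1, rose together. Col4a3 went from 0.1 and 0.1 to 20.4 and 34.3 CPM (4.64 ± 0.26, adjusted p = 0.000259). Col4a4 went from 0.3 and 0.3 to 62.4 and 73.4 CPM (5.72 ± 0.18, adjusted p = 0.000129). The fibrillar Col5a3 went from 4.3 and 10.3 to 422 and 349.97 CPM (5.64 ± 0.37, adjusted p = 0.000387). Col27a1 went from 1.25 and 0.75 to 26.0 and 26.1 CPM (3.77 ± 0.25, adjusted p = 0.000398). Col8a2 went from 0.2 and 0.2 to 2.85 and 3.5 CPM (1.79 ± 0.17, adjusted p = 0.00106). In these 5 genes the TGFb1 + BMP4 libraries differed by less than a factor of 2. They were named for their small adjusted p, which favours genes whose libraries agree. Over all collagens tested, TB2 was above TB1 by a median log2 ratio of 1.77. The fibroblast collagens were uneven too. Col1a1 was at 32.4 and 103 CPM in B1 and B2 and at 615 and 2603 CPM in TB1 and TB2 (4.43 ± 0.97, adjusted p = 0.0178). Col1a2 was at 46.6 and 184 CPM in B1 and B2 and at 595 and 2443 CPM in TB1 and TB2 (3.69 ± 1.04, adjusted p = 0.0411), with replicate 2 above replicate 1 by a factor of 3 or more in both groups. Col1a1 lost its call without B1 or TB2 (adjusted p = 0.0205 to 0.0806 over the 4 fits). Col1a2 lost its call without B1, B2 or TB2 (adjusted p = 0.0424 to 0.176 over the 4 fits).

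Matrix proteins, proteases and integrins rose in part. The counts stand against 17.3% of all genes tested called higher and 10.9% lower. Of 39 matrix and crosslinking genes 15 rose and 3 fell (0 fell without B2), and 33 rose with the replicate number as a block, but 6, 8, 21 and 5 with B1, B2, TB1 and TB2 left out in turn. Loxl2, a collagen crosslinking enzyme gene, went from 2.35 and 7.95 to 102 and 128 CPM (4.4 ± 0.58, adjusted p = 0.00296). The collagen hydroxylase gene Plod2 went from 13.1 and 21.4 to 86.4 and 160.4 CPM (2.74 ± 0.35, adjusted p = 0.00273). The perlecan gene Hspg2 went from 73.5 and 109 to 306 and 649 CPM (2.3 ± 0.42, adjusted p = 0.00916). The elastin gene Eln went from 11.1 and 10.1 to 138 and 584 CPM (4.62 ± 0.85, adjusted p = 0.01). Loxl4 fell from 26.5 and 33.5 to 1.65 and 5.7 CPM (-2.87 ± 0.52, adjusted p = 0.00956). Of 30 matrix proteases and inhibitors 13 rose and 1 fell (7 rose without TB2, and 5 fell with the block). Mmp14, a membrane-bound collagenase gene, rose from 143 and 131 to 559 and 548 CPM (2.01 ± 0.14, adjusted p = 0.000488). Plat, the tissue plasminogen activator gene, rose from 67.3 and 39.1 to 387 and 357 CPM (2.83 ± 0.32, adjusted p = 0.00179). Adamts9 rose from 0.35 and 0.899 to 26.8 and 12.6 CPM (3.6 ± 0.37, adjusted p = 0.00128). Of 31 laminin, integrin and hemidesmosome genes 11 rose and 4 fell (20 rose with the block and 2 fell without TB2). Itgb3 rose from 0.7 and 1.7 to 24.7 and 43.9 CPM (3.99 ± 0.44, adjusted p = 0.00163). Itga5, the fibronectin receptor gene, rose from 48.9 and 69.6 to 168 and 412 CPM (2.15 ± 0.47, adjusted p = 0.0183). Fermt1, the kindlin gene of epithelia, rose from 51.0 and 30.1 to 258 and 219.7 CPM (2.57 ± 0.28, adjusted p = 0.00167). Loxl4 lost its call without B2 (adjusted p = 0.0117 to 0.0516 over the 4 fits). Itga5 lost its call without B1 or TB2 (adjusted p = 0.0113 to 0.073 over the 4 fits).

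The main counts of this section stand against 17.3% of all genes tested called higher and 10.9% lower. Genes of epithelial to mesenchymal transition were higher in B2 than in B1 by a median of 1.19 on the log2 scale, and in TB2 than in TB1 by 1.89. Of 20 tested, 6 rose and 14 did not pass, whereas 15 rose with the block, and 2, 3, 8 and 2 with B1, B2, TB1 and TB2 left out in turn. Vim, the vimentin gene, was at 6.85 and 19.5 CPM in B1 and B2 and at 25.5 and 128 CPM in TB1 and TB2 (2.21 ± 0.95, adjusted p = 0.131). The transition factor genes Zeb1 (0.7 and 4.05 CPM in B1 and B2, 3.3 and 24.4 CPM in TB1 and TB2, 1.84 ± 0.99, adjusted p = 0.211) and Snai2 (42.8 and 53.7 CPM in B1 and B2, 37.7 and 34.3 CPM in TB1 and TB2, -0.41 ± 0.19, adjusted p = 0.151) did not pass. Sparc, a matrix glycoprotein gene, rose from 45.6 and 112 to 329 and 1139 CPM (3.08 ± 0.88, adjusted p = 0.0418). Tnc, the tenascin C gene, rose from 145 and 123 to 281 and 332 CPM (1.19 ± 0.30, adjusted p = 0.03). Of 17 fibroblast markers 3 rose, namely Col1a1, Col1a2 and Mfap5 (0.2 and 1.75 CPM in B1 and B2, 23.0 and 131 CPM in TB1 and TB2, 4.95 ± 0.93, adjusted p = 0.0103), and 12 with the block, 6 without TB1 and 1 without TB2. Of 11 skeletal muscle markers limma called 0 in either direction (0 at an unadjusted p under 0.05), and 7 rose with the block. In the main fit the share of fibroblast markers called higher was near that of all genes. Fibroblast markers were higher in B2 than in B1 by a median log2 ratio of 1.64. Between TB2 and TB1 that ratio was 2.15, against 1.77 for collagens and 1.81 for matrix genes. Of the other marker lists, limma called 0 of 5 smooth muscle, 0 of 2 mesothelial and adipose and 0 of 7 mitochondrial genes tested, each also with 0 at an unadjusted p under 0.05. With the block 2 of the smooth muscle markers rose, as they did without TB1. Of 4 endothelial markers 2 fell (0 without B2, TB1 or TB2), of 4 immune markers 1 rose (2 with the block and 0 without TB2) and 1 fell, of 5 neural and Schwann markers 2 rose and 1 fell, and of 9 markers of esophageal epithelium 1 rose and 1 fell. The part of fibroblasts or muscle cells in these matrix results was not tested. Sparc lost its call without B1, B2 or TB2 (adjusted p = 0.0401 to 0.179 over the 4 fits). Tnc lost its call without any 1 of the 4 libraries (adjusted p = 0.0636 to 0.127 over the 4 fits). Vim passed with the replicate block (adjusted p = 0.000854, 0.000854 to 0.478 over the alternatives). Zeb1 passed with the replicate block (adjusted p = 0.00619, 0.00619 to 0.714 over the alternatives).

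**Figure D3:**
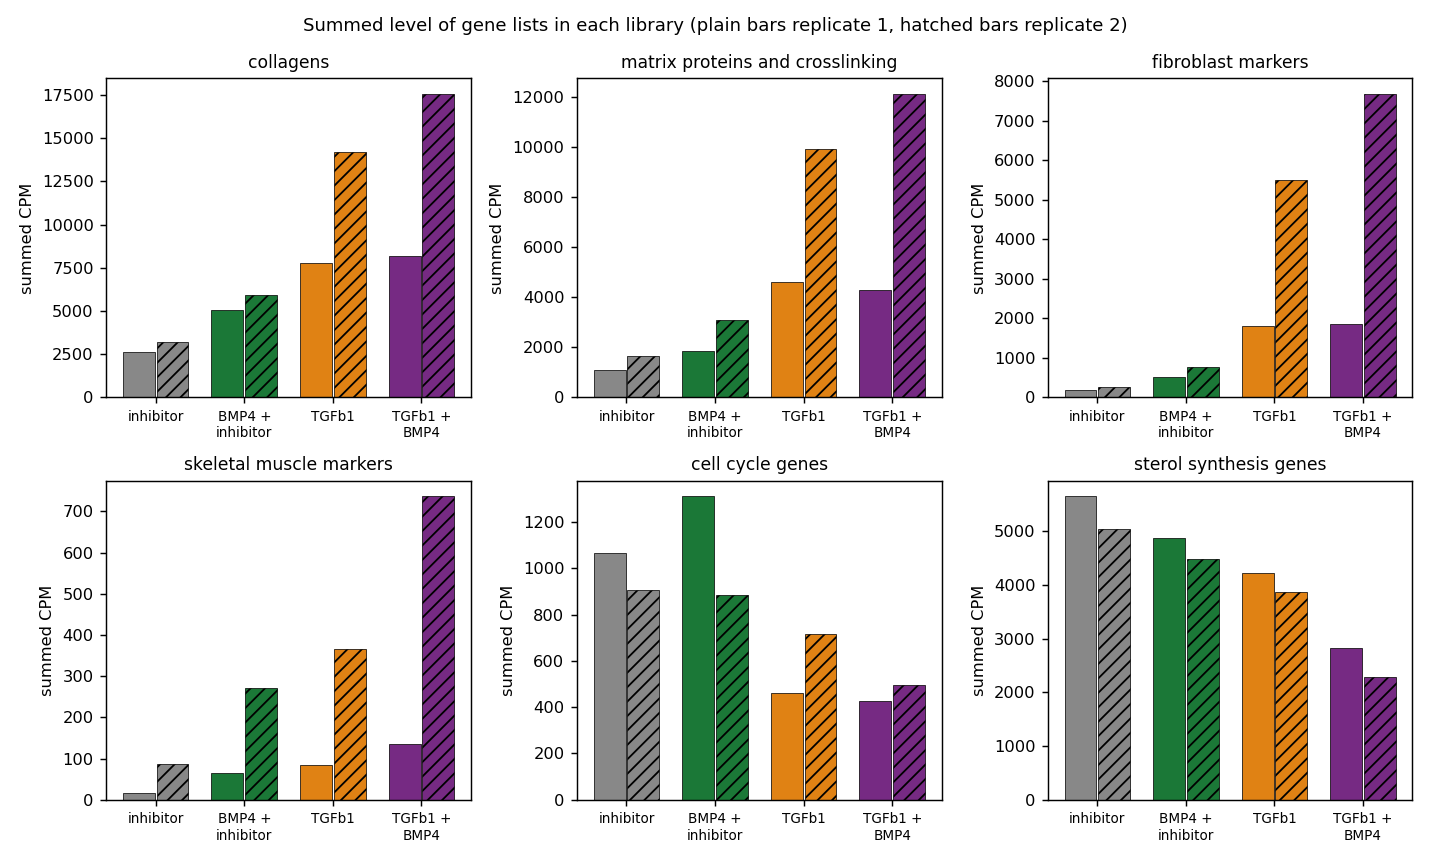
Summed CPM of 6 gene lists in each library, by group, with plain bars for replicate 1 and hatched bars for replicate 2, on axes that start at 0. Collagen, matrix, fibroblast and skeletal muscle sums are higher in replicate 2 of every group and highest in TB2, while cell cycle sums of 426 and 494 CPM and sterol synthesis sums of 2824 and 2280.1 CPM with TGFb1 + BMP4 are below those with BMP4 + inhibitor, 1313 and 884 CPM and 4877 and 4487 CPM.

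Cell cycle genes fell, in counts that stand against 10.9% of all genes tested called lower and 17.3% higher. Of 34 tested, 18 fell and 16 did not pass, with a median of -1.51, but only 4, 8, 3 and 13 were called lower with B1, B2, TB1 and TB2 left out in turn. Mki67, the gene of the proliferation marker Ki67, was at 139.7 and 65.1 CPM in B1 and B2 and at 1.9 and 14.5 CPM in TB1 and TB2 (-3.84 ± 0.92, adjusted p = 0.0247). Cdc20, a mitotic checkpoint gene, fell from 27.1 and 27.5 to 1.35 and 3.6 CPM (-3.11 ± 0.49, adjusted p = 0.00574). The replication licensing gene Mcm5 fell from 44.7 and 28.0 to 3.9 and 6.05 CPM (-2.63 ± 0.47, adjusted p = 0.00873). Mcm3, of the same complex, fell from 40.6 and 33.2 to 5.5 and 9.19 CPM (-2.21 ± 0.38, adjusted p = 0.00788). Mcm2 fell from 38.1 and 30.1 to 12.9 and 14.3 CPM (-1.26 ± 0.26, adjusted p = 0.0156). Tpx2, a spindle gene, fell too (-2.43 ± 0.49, adjusted p = 0.0136). The groups did not overlap for any of these 6 genes, as was so for 63.8% of all genes tested. Of the 14 cyclin D, CDK and CDK inhibitor genes 3 rose and 3 fell (0 fell without TB1). The share of these 14 genes that rose was close to that of all genes. Those that rose were Cdkn2b (1.47 ± 0.21, adjusted p = 0.00412), the gene of the p15 inhibitor, Cdkn2a (2.14 ± 0.27, adjusted p = 0.00267), which was at 1.75 and 1.1 CPM in B1 and B2 and at 7.79 and 11.7 CPM in TB1 and TB2, and Ccnd3 (0.91 ± 0.10, adjusted p = 0.00184). Ccnd2 fell from 302 and 548 to 126 and 187 CPM (-1.4 ± 0.30, adjusted p = 0.0158), Cdk6 fell narrowly (-0.58 ± 0.17, adjusted p = 0.0495), and so did Rb1, the retinoblastoma gene (-0.62 ± 0.17, adjusted p = 0.036). Ccnd1 (0.29 ± 0.18, adjusted p = 0.26), Cdk4 (0.20 ± 0.14, adjusted p = 0.328), Cdkn1b (0.21 ± 0.13, adjusted p = 0.271), Cdkn1c (-0.57 ± 0.23, adjusted p = 0.107), Cdkn2c (-1.15 ± 0.36, adjusted p = 0.0538), Cdkn2d (0.51 ± 0.21, adjusted p = 0.118) and Myc (-0.89 ± 0.32, adjusted p = 0.0801) did not pass. Mki67 lost its call without B1, B2 or TB1 (adjusted p = 0.0181 to 0.0947 over the 4 fits). Mcm2 lost its call without B1, TB1 or TB2 (adjusted p = 0.0397 to 0.0646 over the 4 fits). Tpx2 lost its call without B1, B2 or TB1 (adjusted p = 0.0164 to 0.0542 over the 4 fits). Ccnd2 lost its call without TB1 (adjusted p = 0.00686 to 0.0685 over the 4 fits). Cdk6 lost its call without any 1 of the 4 libraries (adjusted p = 0.0788 to 0.2 over the 4 fits). Rb1 lost its call without B1, TB1 or TB2 (adjusted p = 0.0406 to 0.131 over the 4 fits). Cdk6 missed the threshold under median-of-ratios scaling (adjusted p = 0.051). Cdkn2c passed with the replicate block (adjusted p = 0.0315, 0.0315 to 0.205 over the alternatives).

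Sterol synthesis genes fell as well, 17 of 24, with a median of -0.97. Cyp51 (300.004 and 336 to 122 and 106 CPM, -1.47 ± 0.12, adjusted p = 0.000667), Dhcr7 (84.0 and 101 to 32.0 and 31.6 CPM, -1.51 ± 0.12, adjusted p = 0.000669), Lss (176 and 167 to 80.4 and 71.7 CPM, -1.16 ± 0.11, adjusted p = 0.000905) and Sqle (350.3 and 383 to 159.9 and 122 CPM, -1.39 ± 0.15, adjusted p = 0.00147) encode enzymes from squalene to cholesterol, and Stard4 (-1.29 ± 0.11, adjusted p = 0.000708) a sterol carrier. Libraries within each group were close, and the groups did not overlap, as was so for 63.8% of all genes tested. Of 25 glycolysis and hypoxia genes 2 rose (0 without B1 or TB2, 1 without TB1 and 4 with the block) and 4 fell, among them Adm, the adrenomedullin gene (46.8 and 115 to 3.6 and 6.1 CPM, -3.71 ± 0.49, adjusted p = 0.0031), and Egln3, the gene of an oxygen-sensing hydroxylase (253 and 265 to 72.2 and 58.4 CPM, -1.98 ± 0.13, adjusted p = 0.000401). Of 30 glutathione and NRF2 target genes 5 rose and 8 fell (3 rose without B2, 2 without TB1, 3 with median-of-ratios scaling and 9 with the block). Over all genes tested 17.3% were called higher and 10.9% lower, so the share of glutathione and NRF2 targets that rose was near the background. Gclc, the gene of the rate-limiting enzyme of glutathione synthesis, rose from 69.5 and 82.6 to 334 and 397 CPM (2.25 ± 0.14, adjusted p = 0.000325). Gsr, the glutathione reductase gene, rose from 60.4 and 40.6 to 194 and 153 CPM (1.78 ± 0.23, adjusted p = 0.00285), whereas the glutathione transferase genes Gsta1 (-4.76 ± 0.54, adjusted p = 0.00185), Gsta2 (-4.0 ± 0.39, adjusted p = 0.00119) and Gsta3 (-2.54 ± 0.33, adjusted p = 0.00285) fell. Gsta1 and Gsta2 are close copies between which the counting could divide reads, which makes each value uncertain. Of 30 ribosomal protein genes limma called 0 in either direction, 5 were lower at an unadjusted p under 0.05, and 21 fell with the replicate number as a block, at a median of -0.49.

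Interferon-stimulated genes rose, 14 of 20, with a median of 1.24, and 16, 6, 7 and 5 with B1, B2, TB1 and TB2 left out in turn. The main counts of interferon, chemokine and interleukin genes stand against 17.3% of all genes tested called higher and 10.9% lower. Ifi44 was at 0.949 and 0.25 CPM in B1 and B2 and at 44.2 and 42.6 CPM in TB1 and TB2 (4.83 ± 0.37, adjusted p = 0.000578). Ddx58, the RIG-I gene, was at 15.0 and 7.7 CPM in B1 and B2 and at 36.2 and 37.8 CPM in TB1 and TB2 (1.69 ± 0.30, adjusted p = 0.0088). Ifit3 (2.33 ± 0.39, adjusted p = 0.00717), Usp18 (1.83 ± 0.25, adjusted p = 0.00359) and Rtp4 (1.42 ± 0.17, adjusted p = 0.00225) rose but were under 10 CPM in all 4 libraries. Of 24 chemokine and interleukin genes 11 rose and 3 fell (7 rose without TB2). Ppbp, the gene of a neutrophil-attracting chemokine, went from 19.1 and 14.9 to 1223 and 935 CPM (5.9 ± 0.25, adjusted p = 0.000183). Cxcl5, of the same kind, went from 2.6 and 1.75 to 183 and 116 CPM (5.54 ± 0.61, adjusted p = 0.00168). Cx3cl1 rose to 22.2 and 33.8 CPM (3.19 ± 0.25, adjusted p = 0.000651), while Il18 fell from 61.0 and 52.5 to 5.55 and 4.45 CPM (-3.27 ± 0.28, adjusted p = 0.000776) and the interleukin 1 receptor antagonist gene Il1rn from 302 and 354 to 139 and 102 CPM (-1.45 ± 0.19, adjusted p = 0.0029).

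Genes of other signalling pathways changed singly. Set against 17.3% of all genes called higher and 10.9% lower, the share called higher was above the background for Wnt and YAP genes. It was near the background or somewhat below it for Notch, EGF and IGF, and actin genes. The share called lower was above it for Notch and for EGF and IGF genes, and near it or somewhat below for Wnt, YAP and actin genes. In lists this short, a share near the background is no result about the pathway. Of 29 Wnt pathway genes 8 rose and 4 fell, and 15 and 7 did so with the block (5 rose without TB2 and 2 fell without B1). The ligand gene Wnt5a rose from 141 and 149.8 to 316 and 311 CPM (1.1 ± 0.09, adjusted p = 0.000669), and the canonical ligand genes Wnt10a (60.3 and 61.6 to 11.1 and 10.2 CPM, -2.41 ± 0.27, adjusted p = 0.00177) and Wnt3a (12.7 and 11.6 to 0.45 and 0.4 CPM, -3.2 ± 0.30, adjusted p = 0.000976) fell. Of 16 Notch pathway genes 2 rose and 5 fell (1 rose without B1, B2 or TB2, and 3 fell without B1 or without TB2). Jag1 rose from 162 and 182 to 760.1 and 735 CPM (2.12 ± 0.14, adjusted p = 0.000401), while the other ligand genes Jag2 (296 and 327 to 169 and 149 CPM, -0.97 ± 0.16, adjusted p = 0.00626) and Dll1 (15.2 and 21.2 to 5.05 and 5.75 CPM, -1.57 ± 0.19, adjusted p = 0.00234) fell. Of 22 genes of the EGF and IGF pathways 3 rose (0 without B1 or TB2, and 6 with the block) and 7 fell (9, 5, 3 and 4 fell with B1, B2, TB1 and TB2 left out in turn). Igfbp2, which encodes an IGF binding protein, fell from 60.9 and 62.2 to 0.05 and 0.25 CPM (-5.77 ± 0.34, adjusted p = 0.000296). The EGF receptor ligand genes Btc (-1.39 ± 0.16, adjusted p = 0.00185), Ereg (-1.79 ± 0.37, adjusted p = 0.0142) and Epgn (-4.86 ± 0.95, adjusted p = 0.0123) fell too, Epgn being uneven at 12.5 and 121 CPM in B1 and B2. Of 15 YAP target genes 6 rose and 1 fell (3 rose without TB2 and 3 with median-of-ratios scaling, and 2 fell with the block and 0 without B1, B2 or TB2), led by Ctgf and by Birc3, an inhibitor of apoptosis gene (1.58 ± 0.24, adjusted p = 0.00505). Of 21 actin and contractile genes 2 rose, the cytoskeletal adaptor gene Pdlim7 (1.95 ± 0.16, adjusted p = 0.000738) and the tropomyosin gene Tpm1 (1.17 ± 0.24, adjusted p = 0.0141), and 1 fell, the calponin gene Cnn2 (-0.74 ± 0.19, adjusted p = 0.0293), whereas 8 rose with the block, 4 without B2 and 1 without TB2. Ereg lost its call without B2 or TB1 (adjusted p = 0.0125 to 0.0608 over the 4 fits). Epgn lost its call without TB1 or TB2 (adjusted p = 0.00257 to 0.0519 over the 4 fits). Tpm1 lost its call without TB1 or TB2 (adjusted p = 0.00438 to 0.0619 over the 4 fits). Cnn2 lost its call without B2 or TB1 (adjusted p = 0.0214 to 0.131 over the 4 fits).

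**Figure D4:**
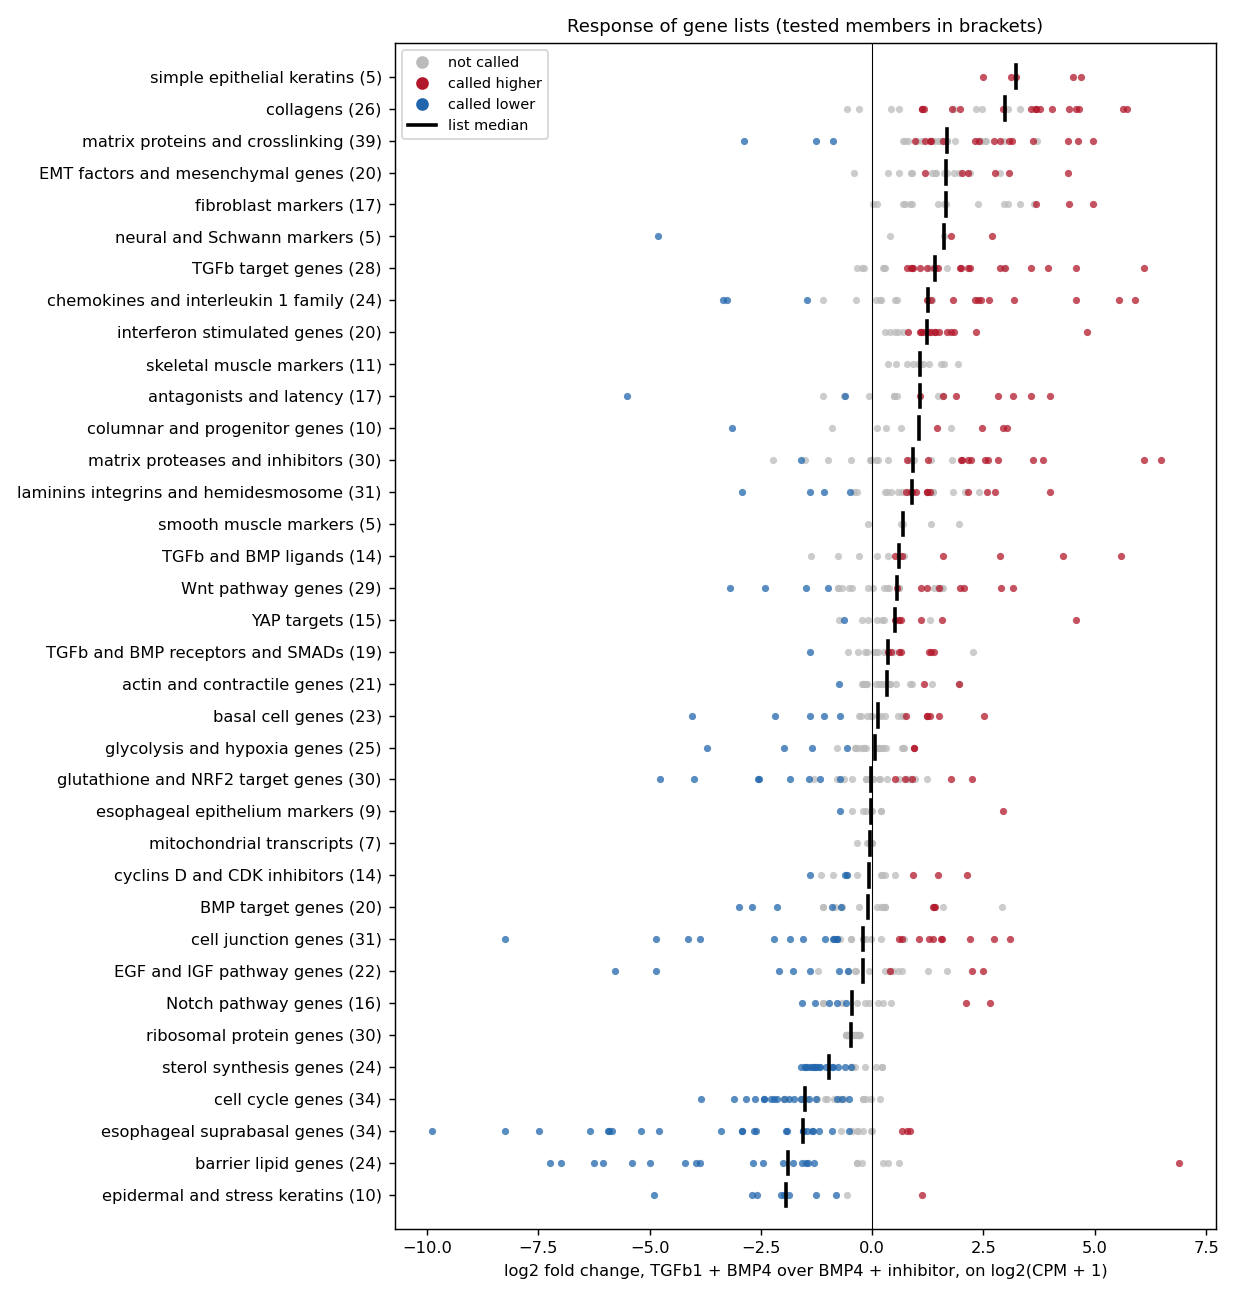
Log2 fold change of TGFb1 + BMP4 over BMP4 + inhibitor on the log2(CPM + 1) scale for each tested member of the gene lists with 5 or more tested members, ordered by list median (black bars), tested members in brackets, with grey for members not called, red for those called higher and blue for those called lower. Simple epithelial keratins and collagens stand highest at medians of 3.23 and 2.99, and epidermal and stress keratins lowest at -1.93.

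The response was then set beside that of organoids without BMP4, which is TGFb1 against the inhibitor alone and compares none of the same libraries. Both responses came from the same fit, with a shared estimate of the spread for each gene, so their calls are not independent. Of the 2797 genes that rose with BMP4, 1986 (71.0%) also rose without it, which is 61.2% of the genes that rose there. Of the 1759 that fell with BMP4, 1163 (66.1%) also fell without it, which is 36.0% of those that fell there. Another 47 genes fell with BMP4 and rose without it, and 12 did the opposite. Across all genes tested the log2 fold changes had a correlation of 0.80, a description over genes that share 8 libraries. Without BMP4, 20.0% of the genes tested were called in each direction, or 40.0% in all. The difference between the responses was called for 208 genes (1.29%), 48 higher and 160 lower with BMP4, and 3068 genes had an unadjusted p under 0.05 for it. These calls depended on single libraries. Their number was 0 and 4 with the first and the second inhibitor library left out, and 93 and 4 with the first and the second TGFb1 library left out. It was 5 without B1, 3 without TB1 and 3 without TB2, but 602 without B2 and 1117 with the replicate block. None of the 27 genes named below and in the closing section kept its call in all 8 of those fits.

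Several genes were highest in the BMP4 + inhibitor libraries and low with TGFb1 + BMP4. Tgm7, a transglutaminase gene (ENSMUSG00000079103, chromosome 2, 121093565 to 121109795), was at 1.25 and 0.45 CPM in the inhibitor libraries, 809.8 and 573 CPM in B1 and B2, 0.75 and 0.4 CPM with TGFb1 alone and 18.1 and 10.1 CPM in TB1 and TB2. Its log2 fold change was -5.55 ± 0.35, adjusted p = 0.000352 with BMP4 and -0.21 ± 0.35 without it, a difference of -5.34 ± 0.49, adjusted p = 0.0197. Frem2, a gene of a basement membrane protein, was at 0.3 and 0.05, 95.6 and 57.4, 0.2 and 0.7 and 0.2 and 1.85 CPM in the same order of groups, and its responses differed by -5.63 ± 0.64, adjusted p = 0.026. In both genes the BMP4 + inhibitor libraries stood apart from the other 6. Dsg1a was at 26.2 and 17.3, 775 and 945, 1.1 and 10.2 and 1.75 and 1.9 CPM (-6.04 ± 0.99, adjusted p = 0.0475 for the difference). Gsta3 (33.9 and 28.3, 226 and 183, 75.9 and 38.3 and 40.6 and 28.6 CPM, -3.32 ± 0.47, adjusted p = 0.036 for the difference) also had its highest level in B1 and B2.

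Other genes were already higher in B1 and B2 than in the inhibitor libraries and responded less upward with BMP4. Krt10 was at 11.2 and 3.15 CPM in the inhibitor libraries, 957 and 649 CPM in B1 and B2, 153 and 89.3 CPM with TGFb1 alone and 241 and 162 CPM in TB1 and TB2. It therefore rose with TGFb1 without BMP4 (4.05 ± 0.53) and was lower with TGFb1 in its presence, a difference of -6.04 ± 0.75, adjusted p = 0.0313. Stmn2, a microtubule regulator gene, was at 1.55 and 0.5, 171 and 84.8, 155 and 152 and 235 and 219.8 CPM and did not pass with BMP4 (0.91 ± 0.36, adjusted p = 0.104), with a difference of -5.4 ± 0.51, adjusted p = 0.0198. Tgfbi (62.0 and 52.4 CPM with inhibitor and 1337 and 1258 CPM with TGFb1) rose by 4.48 ± 0.21 without BMP4 and by 1.97 ± 0.21 with it (-2.51 ± 0.30, adjusted p = 0.026 for the difference). Itgb6 (-1.53 ± 0.18, adjusted p = 0.026) and Cdkn2b (-1.84 ± 0.30, adjusted p = 0.0475) had differences of the same sign, as had Krt20 (-2.75 ± 0.32, adjusted p = 0.026), Muc4 (-2.05 ± 0.27, adjusted p = 0.0322) and Id2 (-1.91 ± 0.28, adjusted p = 0.042), each of which rose in both settings. The final levels of Tgfbi and Krt20 with TGFb1 + BMP4 were above those with TGFb1 alone in both libraries. Stmn2 passed with the replicate block (adjusted p = 0.0269, 0.0262 to 0.403 over the alternatives). Stmn2 also passed without B1.

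For fewer genes the difference between the responses was positive. C1qtnf3 was at 0 and 0.2, 0.3 and 0.25, 16.9 and 12.2 and 208 and 115 CPM in the inhibitor, BMP4 + inhibitor, TGFb1 and TGFb1 + BMP4 groups (3.12 ± 0.44, adjusted p = 0.036 for the difference). Wfdc18 had a like order, at 10.1 and 8.39 CPM with TGFb1 alone and 110.4 and 71.7 CPM in TB1 and TB2 (3.07 ± 0.34, adjusted p = 0.026). Prkg2, a cGMP-dependent kinase gene, was at 13.2 and 16.9, 2.7 and 7.1, 11.9 and 12.7 and 39.2 and 42.4 CPM (3.19 ± 0.49, adjusted p = 0.0436). Ccl20, a chemokine gene, and Serpinb12, a serpin gene, were at 33.0 and 29.0 CPM and at 360.4 and 182 CPM in the inhibitor libraries and at 5 CPM or less in the other 6 libraries (4.37 ± 0.41, adjusted p = 0.0198 and 5.79 ± 0.95, adjusted p = 0.049 for the difference). Both fell without BMP4 (-4.74 ± 0.29 and -7.14 ± 0.67) and did not pass with it (-0.37 ± 0.29, adjusted p = 0.378 and -1.35 ± 0.67, adjusted p = 0.181), so their positive difference was not a larger response with BMP4.

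**Figure D5:**
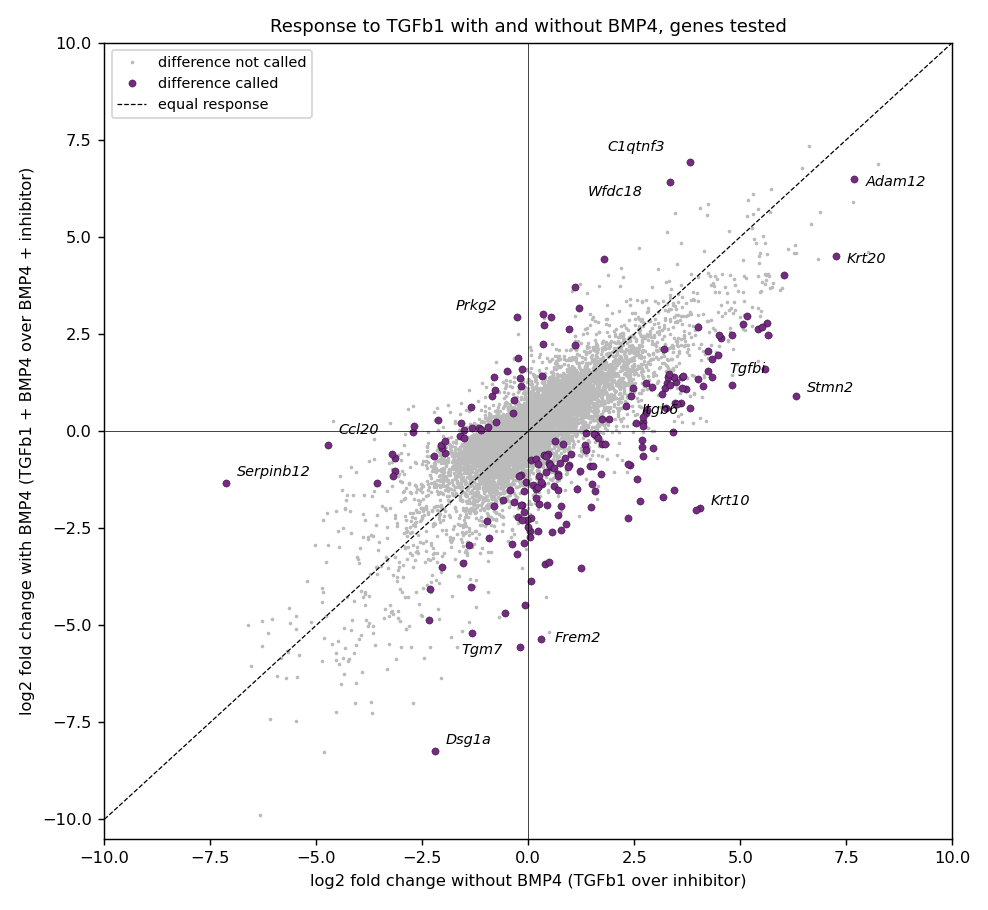
Log2 fold change with BMP4 (TGFb1 + BMP4 over BMP4 + inhibitor, vertical axis) against that without BMP4 (TGFb1 over inhibitor, horizontal axis) for the 16180 genes tested, on the log2(CPM + 1) scale, with the line of equal response dashed. The 208 genes with a called difference are purple, and most lie below the line, among them Tgm7, Frem2, Krt10, Stmn2 and Dsg1a.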

How the data were processed

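RNA was measured in 8 mouse esophageal organoid libraries, 2 in each of 4 groups, prepared with the Ovation SoLo kit for a NovaSeq instrument according to the protocols in the labels. STAR 2.5.3a, HTSeq, edgeR and Cell Ranger 3.1.0 are named with no roles in the submitters' processing notes, with the builds GRCm38 and mm10, while neither the annotation nor whether counting used strand is given in the sources used here. The whole numbers deposited by the authors are treated as a score. They look like read counts brought to nearly 20000000 in each library and then rounded up, since they sum to 20011215 to 20013233. The deposited CPM values, made by the authors, equal these values over their column total to within 0.0005. The deposited log2 values and p-values are the authors' own, with 1 test per gene over all groups, and entered no result here. A second sheet was not used here.

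Read depth is thus not given, reads could not be recovered, and no count test was run. The floor used, 3 scaled units or 0.15 CPM per library, covers counting error only. Reads of overlapping or antisense partners and of close copies cannot be told apart. Positions came from GENCODE M21 (GRCm38), to which 99.72% of gene IDs matched.

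The genes that reached 1 CPM in 2 or more of the 8 libraries entered limma (version 3.58.1, R 4.3.3), run on log2(CPM + 1) with trend, two-sided, group as the only term, all 8 libraries and 4 residual degrees of freedom. For low genes this scale makes a fold change too small. Benjamini-Hochberg adjustment ran over all 16180 genes tested, with a threshold of 0.05. The script was tested on simulated data. The response without BMP4 was TGFb1 against inhibitor, and the difference between the responses was the interaction contrast. The 39 gene lists, the genes fixed by name and the comparison were chosen with earlier results of these data known. Of 795 list genes 792 were in the table and 686 were tested. Lists are described by counts and medians, with no set test.

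The text names the 10 largest rises and falls among called genes that reached 5 CPM in the higher group with libraries apart, leaving out predicted genes. It also names from each list the called members with the smallest adjusted p, at most 5, all members of the lists of TGFb targets, BMP targets, ligands, simple keratins and cyclins, 22 genes fixed by name, of which Krt1 was too low to be tested, and the 5 largest and smallest called interactions. Not every gene taken by this rule is described singly, and a few are not reported here, though the counts of lists include them.

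Replicate numbers came from titles in the labels, with no word on their meaning. For the 6 pairs of groups, libraries of equal number had deviations from their group's mean that correlated at 0.60, 0.32, 0.38, 0.49, 0.52 and 0.74. Each exceeds 0.1, so a replicate block was fitted and its values are given where they change a named gene's call or move a list's count by over 1.5 times. The other alternatives were median-of-ratios scaling, no filter or 1 CPM in 4 libraries, pseudocounts of 0.1 and 5, a log2 fold change of at least 1, no trend, the 4 compared libraries alone, and each library left out.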

Additional observations from a re-analysis of the deposited data

Results flagged for a closer look

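For 27 of the genes named, the response to TGFb1 with BMP4 and that without it differed by a test of the difference itself, at an adjusted p under 0.05 in limma. Each value is the log2 fold change with BMP4 minus that without it, and the adjusted p over all 16180 genes lay between 0.0197 and 0.049. None of the 27 passed in each of the 8 fits with 1 library left out, and Dkk3 and Adam12 passed in none of them.

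The difference was negative for 22 genes. Among genes of squamous epithelium it was -6.04 for Dsg1a, -6.04 for Krt10, -2.62 for Krt24, -1.85 for Crnn, -1.95 for Gjb2 and -5.34 for Tgm7. Among TGFb and BMP targets it was -2.51 for Tgfbi, -1.53 for Itgb6, -1.84 for Cdkn2b, -1.91 for Id2 and -2.37 for Bambi. Bambi rose without BMP4 (1.46 ± 0.23) and fell with it. Among matrix and adhesion genes it was -5.63 for Frem2, -3.62 for Tnc and -1.21 for Adam12. Among genes of simple epithelium it was -2.75 for Krt20 and -2.05 for Muc4. The others were Stmn2 at -5.4, the glutathione transferase gene Gsta3 at -3.32, the Wnt antagonist gene Dkk3 at -2.18, the EGF receptor ligand gene Btc at -1.5, the sterol reductase gene Dhcr7 at -1.06 and Errfi1, an EGF receptor feedback inhibitor gene, at -0.81.

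The difference was positive for 5 genes. It was 3.07 for Wfdc18, 3.12 for C1qtnf3, 3.19 for Prkg2, 4.37 for Ccl20 and 5.79 for Serpinb12.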

How the results depend on the processing

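The compared groups alone gave 1315 genes higher and 1063 lower, a minimum log2 fold change of 1 gave 1284 and 1057, and leaving out 1 of the 4 compared libraries gave 1315 to 2315 higher and 1093 to 1524 lower, and 1 of the other 4 gave 2157 to 2269 and 1416 to 1569. With the replicate block 4161 genes were higher and 2497 lower, and all 4556 calls were made in the same direction. No filter gave 2429 and 1528 over 32344 genes. For the difference between the responses, no filter gave 7 higher and 20 lower, a pseudocount of 0.1 gave 27 higher, the replicate block 428 and 689, and 1 library left out 0 to 222 and 0 to 380. The cause of these moves was not tested, except that no filter adds genes to the adjustment, that fits with fewer libraries have less residual freedom, and that a minimum fold change can only remove calls. Of 179 named calls 136 were made with each of the 4 compared libraries left out, and no named call changed direction under any alternative. With the block 13 named genes were called that were not otherwise, and it changed no other named call. Of 39 list medians, 10 moved by more than their spread between replicate pairs with median-of-ratios scaling, and 23 without TB2. Genes under the floor of 0.15 CPM are imprecise, and with 2 libraries a group a difference that misses the threshold is not shown to be absent.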

Other observations

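Gene families taken by symbol, chosen after their values were seen, held further members of the cornifying program. Family counts stand against 10.9% of all genes tested called lower and 17.3% called higher. Of 20 late cornified envelope genes tested, 20 fell, with a median log2 fold change of -4.91. Lce1k was at 42.2 and 49.4 CPM in B1 and B2 and at 0 and 0.05 CPM in TB1 and TB2, but these genes are close copies between which reads could be divided, so each value is uncertain. Of 9 kallikrein protease genes 8 fell, with a median of -5.85, and Klk13 went from 793 and 698 to 10.2 and 14.0 CPM. Among small proline-rich genes 7 of 16 fell and 3 rose (5 rose with the block), the latter share being close to that of all genes. Sprr1b went from 227 and 182 to 2.70 and 4.05 CPM, whereas Sprr2f went from 112 and 45.9 to 354 and 231 CPM, a call lost without TB1 (adjusted p = 0.0682, 0.00515 to 0.0682 over the 4 fits with 1 compared library left out). Of 14 Ly6 and Lypd surface protein genes 8 fell and 2 rose.

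Serpins of clade B were divided, with 7 of 17 lower and 4 higher. Serpinb7, a gene of differentiated keratinocytes, fell from 58.8 and 67.8 to 0.75 and 1.25 CPM, and Serpinb6b rose from 4.35 and 1.65 to 95.1 and 81.9 CPM. Of 12 S100 genes 5 rose and 2 fell, the latter being S100a8 and S100a9, the calprotectin genes, of which S100a9 went from 38.0 and 57.9 to 13.8 and 16.5 CPM. S100a8 lost its call without B2, TB1 or TB2 (adjusted p = 0.0262 to 0.10 over the 4 fits). Aqp3, a water channel gene of basal cells, fell from 1060.0 and 753 to 333 and 289.5 CPM, a call lost without B1, TB1 or TB2 (adjusted p = 0.0466 to 0.093 over the 4 fits). Of 29 keratin genes 11 fell, 8 rose and 10 did not pass. Of 16 Hox genes tested 4 rose, 2 fell and 10 did not pass, with a median of 0.61 (9 rose with the block). Hoxc13, a homeobox gene known for its part in hair and nail keratins, was 1 of the 2 that fell, from 35.3 and 16.2 to 4.55 and 0.70 CPM.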
